A study of Olea europaea with 24 samples.

Results

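Branches of 3 dried olive trees and 3 watered olive trees (Olea europaea) were compared on 6 June, 30 days after the first sampling. The 6 libraries, 1 branch of each tree, are 6 of the 24 in the series, which follows the same 6 trees over 4 days (7 May, 23 May, 6 June and 29 July). Dried trees 4, 8 and 12 had received 1 litre of water a week over 2 weeks and none in the 2 weeks after that, per the labels. Watered trees 3, 9 and 11 were irrigated with 1.2 litres a day. The labels do not tie the irrigation weeks to the sampling days, and they give neither cultivar nor tree age. RNA came from whole frozen and ground branches, extracted with CTAB and enriched for poly-A transcripts. The comparison covers all 50663 rows of the authors' count table. Of these, 97 rows carry short names of carbohydrate genes and 50566 rows carry gene model IDs without names.

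Woody branches store carbon as starch. ADP-glucose pyrophosphorylase makes the activated glucose from which starch synthases and branching enzymes build starch granules inside plastids. Amylases, debranching enzymes and starch phosphorylase take the granules apart, and the maltose and glucose that result leave the plastid. Sucrose, the transported sugar, is split by invertase into glucose and fructose or by sucrose synthase into fructose and UDP-glucose. Deficits of water are known to shift many plants between stored starch and soluble sugars. The roles given below are read from the authors' short names, and they were not checked here against sequence. The IDs have no names, so markers of bark, wood or leaf tissue were not examined. In whole branches, fewer cells of a type and less RNA per cell cannot be told apart.

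The 6 libraries held 7374969 to 12025731 counts, but their composition differed. A group of 19 abundant ID rows, each at least 1% of some 6 June library, took up 90.6%, 60.6% and 66.1% of the counts in dried trees 4, 8 and 12. The same rows took up 14.2%, 70.5% and 77.8% in watered trees 3, 9 and 11. All other rows were left with 1122143 to 4079329 counts in dried trees, against 2147551 to 9147103 in watered trees. Dried tree 4 was the shallowest in this sense and watered tree 3 the deepest, so low rows were best measured in watered tree 3. Of the 29107 rows tested, 20.3%, 13.1% and 12.5% had no count in the dried trees, against 1.77%, 5.47% and 8.59% in the watered trees. The TMM scaling factors were 0.14, 0.66 and 0.63 in dried trees 4, 8 and 12, and 2.53, 0.69 and 0.44 in watered trees 3, 9 and 11. Similar counts can therefore lie far apart once scaled. Bamylase2 had 1840 counts in dried tree 4 and 1993 in watered tree 3, at 10.11 and 6.22 log2 CPM. All levels and statements on overlap below rest on this scaling. Across rows, log2 CPM (counts scaled to library size by TMM, with a prior count of 2) correlated at r = 0.71 to 0.81 between dried trees. Between watered trees it correlated at 0.71 to 0.87 and between arms at 0.50 to 0.74. Watered trees 9 and 11 were the most alike, and watered tree 3 stood apart from both.

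**Figure D1:**
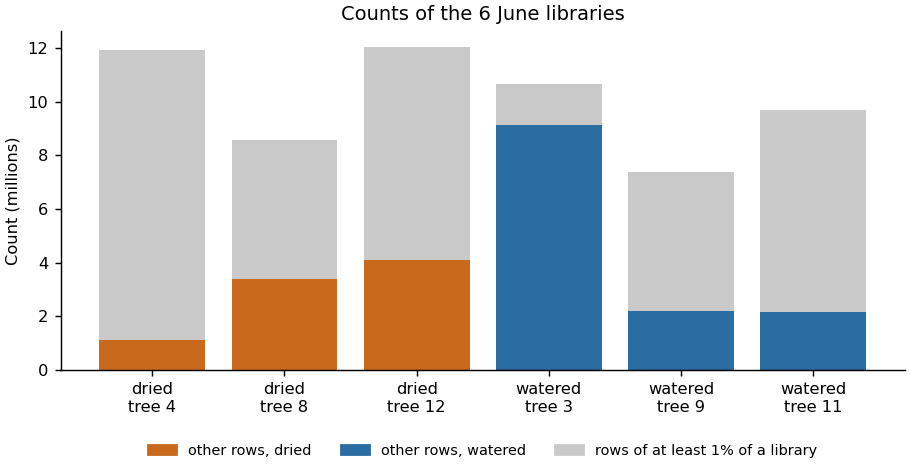
Counts (vertical axis) in each 6 June library, 3 dried trees on the left and 3 watered trees on the right, with the 19 abundant rows in grey and all other rows in colour. The coloured part is smallest in dried tree 4 (1122143 counts) and largest in watered tree 3 (9147103 counts).

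Across all rows, 30 differed between dried and watered trees at an adjusted p under 0.05 (edgeR quasi-likelihood test with Benjamini-Hochberg adjustment), which is 0.103% of the 29107 rows tested. Of these 6 were higher (0.0206%) and 24 lower (0.0825%) in dried trees, and in all 30 the arms did not overlap. Their adjusted p-values lay between 0.0472 and 0.0485, so the whole list sat just inside the threshold. Their smallest fold change was 1.94 on the log2 scale, and their medians were 4.57 for the higher and -4.48 for the lower rows. In 5 of them the dried trees held no count. At an unadjusted p under 0.05 there were 7059 rows (24.3%), 2424 higher (8.33%) and 4635 lower (15.9%) in dried trees. The median log2 fold change of all rows was -0.25, and it ran from -0.39 to 0.00 under the other scalings and libraries tried.

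That count depended strongly on the method and on single libraries. DESeq2 called 4058 of 26822 rows (15.1%), 1437 higher (5.36%) and 2621 lower (9.77%) in dried trees, and all 30 edgeR rows were among them. The 6 June libraries fitted alone gave 1102 of 20789 rows (5.3%), with more rows higher (642) than lower (460). Leaving out 1 library of 6 June gave 12 calls without dried tree 4, 4 without dried tree 12 and 1 without watered tree 3. No row was called without dried tree 8, watered tree 9 or watered tree 11, with 5424, 6203 and 6346 rows at an unadjusted p under 0.05. Without the watered tree 9 library of 7 May, which is no 6 June sample but enters the filter, the scaling and the shared estimate of spread, 3405 of 30479 rows (11.2%) were called. Leaving out the 19 abundant rows before scaling gave 30 calls, 6 higher and 24 lower.

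Of the 29 called rows without names, 4 are given here, those with the largest fold changes in each direction among called rows with a mean of at least 1 log2 CPM. Lower called rows with larger fitted changes fell under that level and are not named. Oeu018773.1 had 145, 379 and 1214 counts in dried trees 4, 8 and 12, against 0, 0 and 2 in watered trees 3, 9 and 11. Pooled over trees this is 2117-fold higher in dried trees, with a 95% interval of 585 to 17492 from counting error. Oeu044065.1 rose as well, with 294, 1877 and 3152 counts in dried trees, against 13, 0 and 4 in watered trees (log2 fold change 9.34 ± 1.64 SE, edgeR adjusted p = 0.0472). Both rows were high in every dried tree, with no overlap. In the opposite direction, Oeu001755.1 fell, with 3, 0 and 2 counts in dried trees and 363, 54 and 58 in watered trees (-4.89 ± 0.89 SE, edgeR adjusted p = 0.0472). Oeu007891.1 fell by 4.80 ± 0.81 (SE) on the log2 scale, with 3, 0 and 5 counts in dried trees and 570, 105 and 41 in watered trees. The watered trees all stood above every dried tree for these 2 IDs, although watered tree 3 supplied most of their counts. With 1 library left out, the log2 fold change ran from 8.83 (without watered tree 3) to 13.27 (without watered tree 11) for Oeu018773.1. In the latter fit the watered trees left hold no count, so 13.27 is not a measured size. The log2 fold change ran from -4.10 (without dried tree 8) to -6.34 (without dried tree 4) for Oeu001755.1, and from -4.07 to -5.56 without the same trees for Oeu007891.1.

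Of the 97 named carbohydrate rows, 87 passed the filter on low counts. Of these, 25 had positive and 62 negative log2 fold changes (median -0.52, against -0.25 for all rows tested). Only starchsyn1 was called over all rows. The 10 rows not tested were hexokinase7, starchp4, sbe2, sbe5 and 6 invertase rows (invertase3 to invertase7 and invertase10). Apart from starchp4 (0 counts in dried trees, against 9, 0 and 7 in watered trees), none of them had over 2 counts in any 6 June library. The dried and watered trees did not overlap in 36 of the 87 rows (41.4%), 11 higher and 25 lower in dried trees, against 27.2% of all rows tested (9.84% higher and 17.4% lower). A row that is abundant in only 1 arm can pass the filter through that arm, so these shares describe the rows and do not test the group. DESeq2 called 24 of 83 named rows, 6 higher and 18 lower in dried trees, against 15.1% of all rows. The authors picked the named rows and may have used these libraries to do so, and rows of 1 family can share reads.

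**Figure D2:**
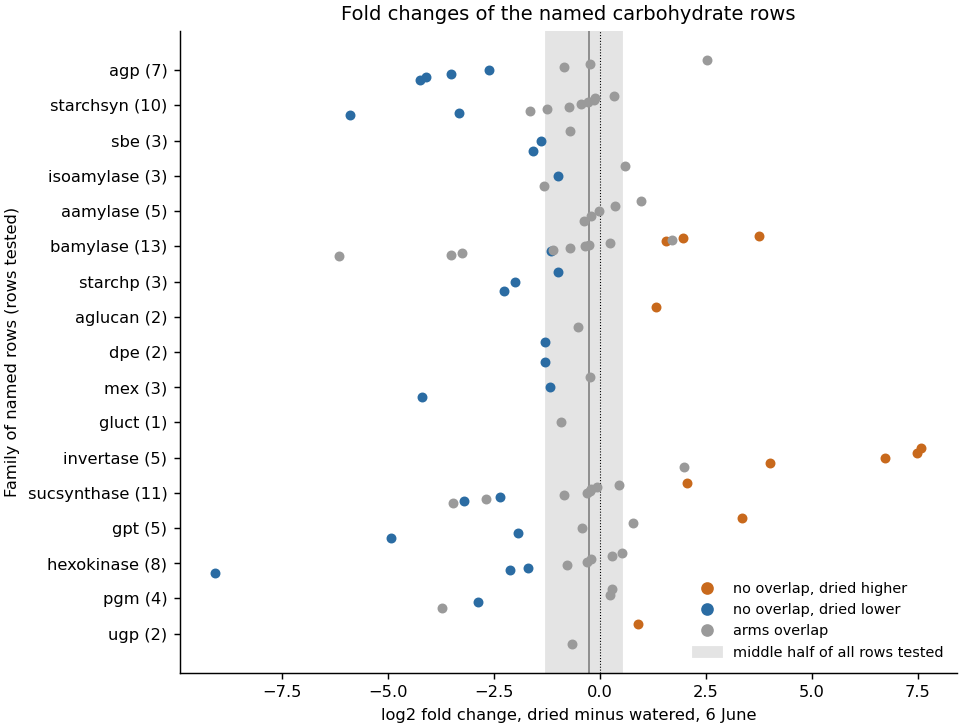
Each point is a named row that was tested, placed by its log2 fold change (dried minus watered, horizontal axis) within its family (vertical axis, number of rows in parentheses), with grey shading for the middle 50% of all rows tested and a grey line at their median of -0.25. Orange points are rows in which all dried trees lay above all watered trees, which include 4 invertase rows. Blue points lay below, which include 4 agp and 3 starchp rows. Over all rows tested, 9.84% lay above and 17.4% below in this way.

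Of 22 starch synthesis rows tested, 19 had negative and 3 positive log2 fold changes, with a median of -1.04. Over all rows 17041 of 29107 were negative, with a median of -0.25. In 8 of the 22 rows every dried tree lay below every watered tree (36.4%, against 17.4% of all rows), and in none was the reverse seen. The other 14 overlapped, and 1 row was called. Starchsyn1, named as a starch synthase, had 0, 2 and 0 counts in dried trees 4, 8 and 12, against 322, 49 and 19 in watered trees 3, 9 and 11. Every watered tree was far above every dried tree: at the lowest watered rate, that of tree 11, the dried libraries would have held 7.41, 25.1 and 33.7 counts. Starchsyn1 fell by 5.90 ± 1.12 on the log2 scale (SE, 3 trees in each arm, edgeR adjusted p = 0.0472). Over the 15 alternatives its adjusted p ran from 0.000141 to 0.15, and it passed in 8 of them. It missed the threshold in each of the 6 fits that left out a library and in the fit with the tree as a random block (0.0592). The log2 fold change was -5.07 without dried tree 12 and -9.70 without dried tree 8, where the dried trees left hold no count.

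Starchsyn8 had 11, 17 and 19 counts in the dried trees, against 1441, 182 and 103 in the watered trees. On the scaled level these were 2.76, 1.67 and 1.42 log2 CPM in dried trees and 5.75, 5.18 and 4.61 log2 CPM in watered trees. The arms were separated by more than the spread of either, at a log2 fold change of -3.32 ± 0.79 (SE), but the edgeR adjusted p was 0.0563 (0.00101 to 0.164 over the alternatives). Starchsyn4 held the most counts of the starch synthase rows. Its levels were 6.95, 5.40 and 7.62 log2 CPM in dried trees, against 9.58, 7.62 and 7.43 log2 CPM in watered trees. Dried tree 12 lay level with watered trees 9 and 11, and the edgeR adjusted p was 0.243. The other 7 starch synthase rows overlapped between arms, with log2 fold changes from -1.24 for starchsyn5 to 0.33 for starchsyn10. Over the family 2 of 10 rows did not overlap (20%), a share below the 27.2% of all rows tested.

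The agp rows, named as subunits of ADP-glucose pyrophosphorylase, held the lowest median of the starch synthesis families, -2.63 over 7 rows. Agp2 had 3.54, 1.31 and 4.12 log2 CPM in dried trees, against 8.21, 4.91 and 4.63 log2 CPM in watered trees. No dried tree reached the watered range, but watered tree 3 was far above the other 2 watered trees, and it set much of the difference. The log2 fold change of agp2 was -3.50 ± 1.13 (SE, edgeR adjusted p = 0.0817, 0.00806 to 0.475 over the alternatives), and -1.41 without watered tree 3. Agp5 was counted 4, 1 and 4 times in dried trees, against 659, 41 and 24 times in watered trees. Agp1 stood at -0.37, 0.08 and 1.02 log2 CPM in dried trees and at 3.54, 3.09 and 1.46 log2 CPM in watered trees. These 2 rows did not overlap either, with log2 fold changes of -4.10 ± 1.18 for agp5 and -2.63 ± 0.99 for agp1 (SE). Agp3, chosen after its values were seen, had 0, 7 and 0 counts in dried trees and 355, 50 and 19 in watered trees. The remaining rows overlapped, and agp4 was the 1 agp row with a positive fold change (2.54 ± 1.51 SE), from 10 pooled counts in dried trees and 8 in watered trees. Summed over the family, agp rows came to 24.05, 16.9 and 41.3 CPM in dried trees, against 373, 69.9 and 46.7 CPM in watered trees. The summed levels of dried tree 12 and watered tree 11 were close.

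Starch branching enzymes place the branch points of amylopectin. Sbe3 had 5.70, 3.91 and 5.69 log2 CPM in dried trees, against 7.21, 6.48 and 6.85 log2 CPM in watered trees. Sbe1 had 3.93, 3.20 and 4.996 log2 CPM in dried trees, against 5.99, 5.58 and 5.14 log2 CPM in watered trees. Both were lowest in dried tree 8, and in both all dried trees lay under all watered trees, by a narrow margin for sbe1. Their log2 fold changes were -1.58 ± 0.78 for sbe3 and -1.38 ± 0.59 for sbe1 (SE), with edgeR adjusted p-values of 0.218 and 0.153. Summed branching enzyme rows came to 60.7 ± 29.7 CPM in dried trees and 171 ± 40.9 CPM in watered trees (SD, n = 3 each). Isoamylase1 and isoamylase2, named as debranching enzymes, overlapped, with log2 fold changes of 0.61 and -1.32.

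**Figure D3:**
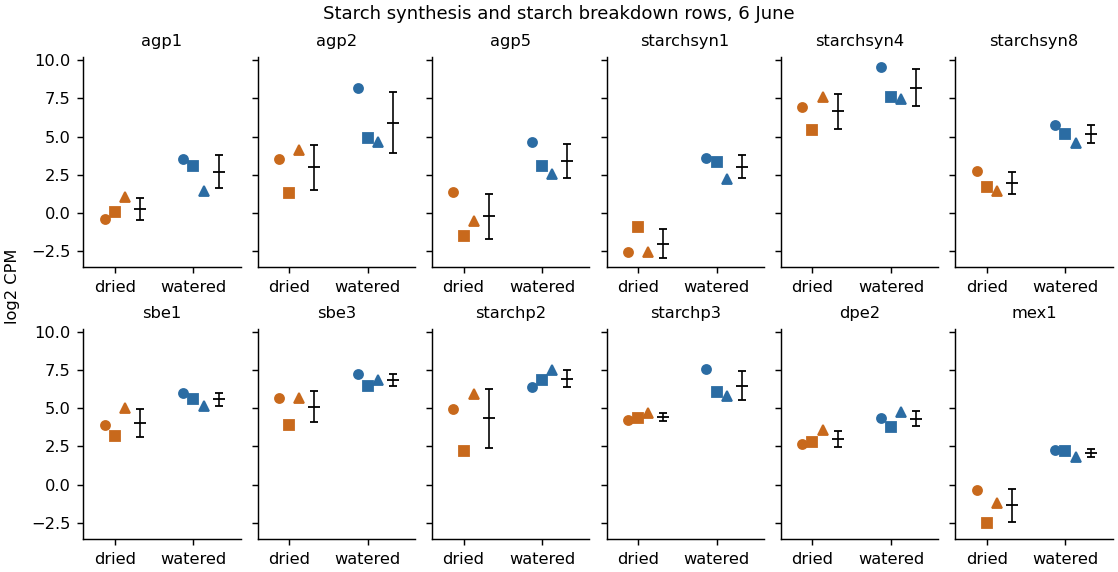
Levels (log2 CPM, vertical axis) of 12 rows named for starch synthesis and breakdown in each library, dried trees 4, 8 and 12 on the left of a panel and watered trees 3, 9 and 11 on the right (circle, square and triangle in that order), with the mean and SD in black. The rows were chosen with earlier results known, and all but starchsyn4 show dried trees below watered trees without overlap. Among all rows tested for these roles, that held in 8 of 22 for synthesis and 9 of 30 for breakdown. In 4 breakdown rows dried trees lay above without overlap. Values at -2.54 are libraries with 0 counts.

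Starch breakdown split by enzyme. Of 30 rows tested, 8 had positive and 22 negative log2 fold changes (median -0.61), and none was called over all rows by edgeR. In 4 rows all dried trees were higher and in 9 all were lower, and over all rows these shares were 9.84% and 17.4%. DESeq2 called 1 higher and 5 lower (20.7% of 29 rows, against 15.1% of all rows). At an unadjusted p under 0.05 the breakdown rows stood at 23.3%, near the 24.3% of all rows. The families on the lower side were starch phosphorylase, the disproportionating enzymes and the maltose exporters. The higher side was held by a few beta-amylase rows and by aglucan2. Isoamylase3 is counted here because the debranching enzyme of that number takes part in breakdown in Arabidopsis, although the numbering in olive need not follow it. It was lower in all dried trees (2.48, 2.67 and 2.84 log2 CPM, against 4.10, 2.91 and 3.66 log2 CPM in watered trees), at -0.97 ± 0.58 (SE).

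Starch phosphorylase removes glucose from chain ends as glucose-1-phosphate. Starchp2 stood at 4.92, 2.20 and 5.93 log2 CPM in dried trees and at 6.42, 6.82 and 7.51 log2 CPM in watered trees. Starchp3 stood at 4.23, 4.32 and 4.69 log2 CPM in dried trees and at 7.54, 6.08 and 5.83 log2 CPM in watered trees. For starchp3 the dried trees were close together and the gap to the watered trees exceeded their spread, whereas for starchp2 dried tree 12 came near watered tree 3. The log2 fold changes were -2.27 ± 0.81 for starchp3 and -1.99 ± 0.77 for starchp2 (SE). Their edgeR adjusted p-values were 0.101 (0.0178 to 0.318 over the alternatives) and 0.123 (0.0317 to 0.301). Starchp1, picked after its values were seen, did not overlap either, at -0.98 ± 0.50 (SE), but only by a margin of 0.04 log2 CPM between the nearest trees. Summed over the family, starch phosphorylase came to 53.5, 26.6 and 91.4 CPM in dried trees, against 281, 185 and 248 CPM in watered trees. The sums were 4.17-fold lower in dried trees and did not overlap.

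Disproportionating enzymes (dpe) rearrange short glucans and maltose after breakdown. Dpe2 had 2.63, 2.79 and 3.59 log2 CPM in dried trees, against 4.37, 3.79 and 4.75 log2 CPM in watered trees, and dpe1 was lower in all dried trees as well. The log2 fold changes were -1.28 ± 0.44 for dpe2 and -1.29 ± 0.71 for dpe1 (SE), with edgeR adjusted p-values of 0.0916 and 0.278. The maltose exporter moves maltose out of the plastid. Mex1, chosen after its values were seen, had 1, 0 and 2 counts in dried trees, against 124, 22 and 14 in watered trees. All watered trees lay well above the dried trees, whose libraries would have held 5.46, 18.5 and 24.8 counts at the lowest watered rate. Pooled, mex1 was 21.9-fold lower in dried trees (95% interval 7.36 to 107, counting error only), with an edgeR adjusted p of 0.0577 (0.0019 to 0.176 over the alternatives). Mex3 did not overlap and had a smaller fold change (-1.18 ± 0.91 SE). Mex2, the most counted of the family, overlapped fully at -0.22 ± 0.50 (SE).

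Beta-amylases release maltose from starch chains, and 13 rows carry that name. Of these, 5 had positive and 8 negative log2 fold changes (median -0.34). The arms did not overlap in 4 of them (30.8%, against 27.2% of all rows tested). At an edgeR unadjusted p under 0.05 there were 2 (15.4%, against 24.3% of all rows). Bamylase3 had 3.81, 6.30 and 5.21 log2 CPM in dried trees, against 2.00, 1.90 and 1.19 log2 CPM in watered trees. All dried trees were above all watered trees, and dried tree 8 was highest. The log2 fold change was 3.75 ± 1.47 (SE, edgeR adjusted p = 0.127, 0.0215 to 0.302 over the alternatives). Bamylase2 reached 10.11, 10.16 and 11.23 log2 CPM in dried trees, against 6.22, 7.73 and 9.81 log2 CPM in watered trees. Dried tree 12 was the highest, and watered tree 11 came within 0.30 of the lowest dried tree. The log2 fold change of bamylase2 was 1.97 ± 1.11 (SE, edgeR adjusted p = 0.287), and 3.43 without watered tree 11. Bamylase11 did not overlap either (1.57 ± 0.80 SE, edgeR adjusted p = 0.235). Bamylase10, taken up after its values were seen, had 9.29, 8.99 and 10.68 log2 CPM in dried trees and 5.79, 7.69 and 9.22 log2 CPM in watered trees, with watered tree 11 inside the dried range. Its log2 fold change was 1.70 ± 0.97 (SE), and 2.82 without watered tree 11. Together bamylase2, bamylase10 and bamylase11 made up 95.1% to 97.8% of beta-amylase counts in dried trees, against 73.7% to 95.7% in watered trees. Their sum was 2011, 2438 and 4522 CPM in dried trees, against 287, 573 and 1703 CPM in watered trees.

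Not all beta-amylase rows lay on that side. Bamylase6 had 3.74, 2.86 and 2.87 log2 CPM in dried trees, against 4.11, 4.12 and 4.66 log2 CPM in watered trees. All watered trees were higher and close together (log2 fold change -1.14 ± 0.37 SE, edgeR adjusted p = 0.0813, 0.00603 to 0.242 over the alternatives). The other 8 rows overlapped. Alpha-amylases cut starch chains internally, and all 5 rows overlapped between arms. Aamylase4, the most counted, had 4.83, 6.01 and 5.38 log2 CPM in dried trees and 5.13, 4.001 and 4.11 log2 CPM in watered trees (0.98 ± 0.57 SE). Aglucan2 was higher in all dried trees (5.05, 4.20 and 6.06 log2 CPM, against 4.17, 3.57 and 4.11 log2 CPM in watered trees), by a margin of 0.03 between the nearest trees. Aglucan1 and gluct1 overlapped, at -0.52 ± 0.44 and -0.90 ± 0.52 (SE).

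Rows for sucrose cleavage divided by enzyme. Of 16 rows tested, 7 had positive and 9 negative log2 fold changes (median -0.14). The positive share of 43.8% was near the 41.5% of all rows tested. The positive rows were the 5 tested invertases, sucsynthase1 and sucsynthase2, and the negative rows were the other 9 sucrose synthase rows. All 5 tested invertase rows had positive log2 fold changes, with a median of 6.73, against 41.5% positive over all rows tested. In 4 of them (80%) dried trees were higher without overlap, against 9.84% of all rows. A row can pass the filter on low counts through the libraries where it is high, so these shares do not test the family. Invertase2 had 191, 2723 and 729 counts in dried trees, against 22, 9 and 6 in watered trees. Its levels were 6.85, 8.92 and 6.59 log2 CPM in dried trees and -0.01, 0.97 and 0.66 log2 CPM in watered trees. Every dried tree was at least 5.63 log2 units above every watered tree, and dried tree 8 was highest. The log2 fold change was 7.48 ± 2.22 (SE, edgeR adjusted p = 0.0697, 0.000246 to 0.187 over the alternatives).

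Invertase8 had 116, 1256 and 386 counts in dried trees, against 39, 0 and 7 in watered trees. Invertase1 had 21, 1081 and 56 counts in dried trees, against 2, 0 and 6 in watered trees. Invertase11 had 16, 189 and 160 counts in dried trees, against 60, 7 and 0 in watered trees. The 60 came from watered tree 3, whose total of 10663027 counts was below the 11929380 of dried tree 4. With TMM factors of 2.53 and 0.14 in these 2 libraries, the scaled level was higher in dried tree 4. On the TMM scale, all 3 rows stood higher in every dried tree. Dried tree 8 led each of them, by the widest margin for invertase1, whose level was 7.58 log2 CPM there against 3.68 and 2.92 log2 CPM in dried trees 4 and 12. The log2 fold changes were 6.73 ± 1.90 for invertase8, 7.59 ± 2.62 for invertase1 and 4.01 ± 1.31 for invertase11 (SE). The edgeR adjusted p was 0.0656 for invertase8 (0.000392 to 0.18 over the alternatives) and 0.0834 for invertase11 (0.0106 to 0.211). For invertase1 it was 0.0945 (0.0151 to 0.313 over 14 alternatives, since DESeq2 gave this row no adjusted p). Invertase9 overlapped (22 pooled counts in dried trees and 11 in watered trees). Summed over the 11 invertase rows, the level was 207, 935 and 176 CPM in dried trees, against 4.83, 3.96 and 4.93 CPM in watered trees. The watered trees were alike in this sum, which rests on 130, 20 and 21 counts there, although single rows differed between them. The mean of the dried trees was 96.1-fold higher, or 41.9-fold higher without dried tree 8, over this low watered level. Without dried tree 8 the log2 fold change was 4.75 for invertase1 and 6.34 for invertase2.

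Sucrose synthase rows lay on both sides, and 3 of 11 did not overlap (27.3%, near the 27.2% of all rows tested). Sucsynthase10 had 3.20, 1.59 and 2.45 log2 CPM in dried trees, against 6.04, 5.80 and 4.93 log2 CPM in watered trees. Sucsynthase11 had 4.23, 2.86 and 3.55 log2 CPM in dried trees, against 6.70, 5.61 and 5.07 log2 CPM in watered trees. In both, the dried trees lay below all watered trees and dried tree 8 was lowest. Their log2 fold changes were -3.19 ± 1.02 for sucsynthase10 and -2.34 ± 0.66 for sucsynthase11 (SE), at edgeR adjusted p-values of 0.0796 (0.00905 to 0.228 over the alternatives) and 0.0656 (0.00532 to 0.196). Sucsynthase1 showed the opposite pattern, with 7.57, 8.64 and 8.18 log2 CPM in dried trees, against 6.18, 5.20 and 6.67 log2 CPM in watered trees. All dried trees were higher, with a log2 fold change of 2.06 ± 0.74 (SE, edgeR adjusted p = 0.103, 0.011 to 0.254 over the alternatives). The other 8 rows overlapped. The summed family did not separate the arms, at 645 ± 198 CPM in dried trees and 591 ± 174 CPM in watered trees (SD, n = 3 each). Sucsynthase1 made up 34.4% to 62.0% of that family's counts in dried trees, against 7.95% to 13.8% in watered trees.

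**Figure D4:**
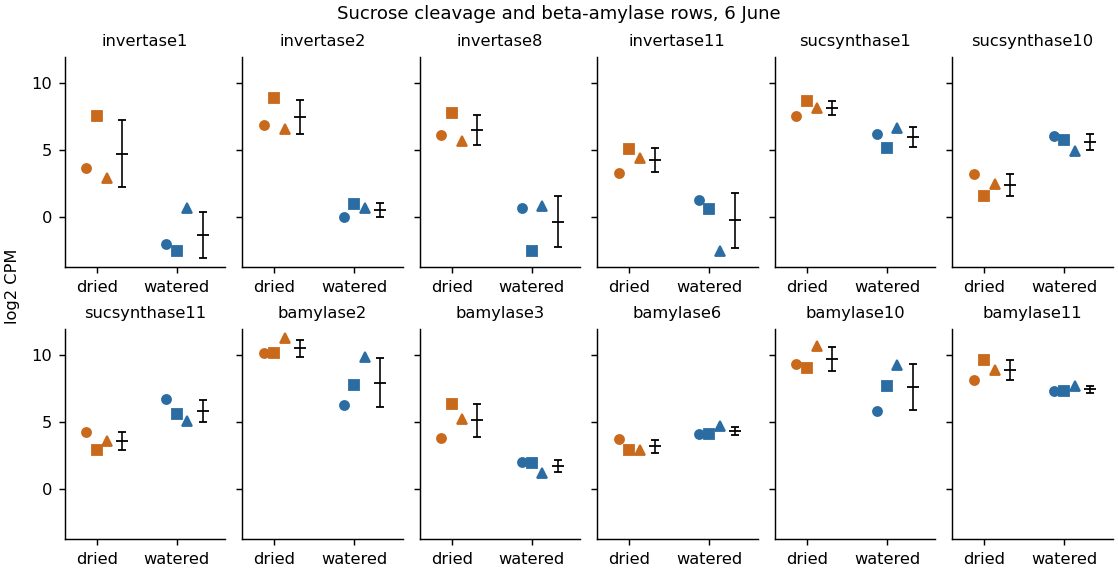
Levels (log2 CPM, vertical axis) of 12 invertase, sucrose synthase and beta-amylase rows in each library, dried trees 4, 8 and 12 on the left of a panel and watered trees 3, 9 and 11 on the right (circle, square and triangle in that order), with the mean and SD in black. Dried trees lie above watered trees without overlap in the 4 invertase rows, sucsynthase1, bamylase2, bamylase3 and bamylase11. They lie below in sucsynthase10, sucsynthase11 and bamylase6, and bamylase10 overlaps. The 12 rows were chosen with earlier results known.

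Glucose-6-phosphate translocators (gpt) carry glucose-6-phosphate into plastids, where it can feed starch synthesis. Gpt2 had 3, 3 and 1 counts in dried trees, against 1103, 34 and 23 in watered trees. It was low in all dried trees, while watered tree 3 lay far above the others, at 5.36 log2 CPM against 2.79 and 2.48 log2 CPM in watered trees 9 and 11. The log2 fold change was -4.92 ± 1.22 (SE, edgeR adjusted p = 0.0577, 0.00153 to 0.325 over the alternatives), and -3.36 without watered tree 3. Gpt4 was lower in all dried trees (-1.94 ± 0.73 SE). Gpt3 was higher in all of them, at 0.98, 4.78 and 1.90 log2 CPM against 0.32, 0.44 and 0.15 log2 CPM in watered trees. That difference rested mostly on dried tree 8: its log2 fold change of 3.36 ± 1.31 (SE) was 1.36 without that tree. Gpt5, the most counted, and gpt1, chosen after its values were seen, overlapped at -0.41 ± 0.50 and 0.78 ± 0.41 (SE). The family sum was 138 ± 34.5 CPM in dried trees and 127 ± 31.6 CPM in watered trees (SD, n = 3 each).

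Hexokinase phosphorylates the glucose that sucrose cleavage and starch breakdown set free. Hexokinase9, chosen after its values were seen, had no count in any dried tree, against 120, 25 and 34 counts in watered trees. At the lowest watered rate the dried libraries would have held 7.42, 25.2 and 33.7 counts, and against a floor of 3 counts over the arm the row was at least 24.5-fold lower in dried trees. Its edgeR adjusted p was 0.056 (0.000141 to 0.152 over the alternatives). Hexokinase5 and hexokinase8 were lower in all dried trees, at -2.12 ± 0.98 and -1.69 ± 0.70 (SE). The other 5 tested rows overlapped, among them the most counted, hexokinase4, at 0.53 ± 0.42 (SE). Summed hexokinase was 58.7 ± 13.4 CPM in dried trees and 68.4 ± 3.86 CPM in watered trees (SD, n = 3 each). The sum overlapped, although 3 of 8 rows did not (37.5%, all lower, against 17.4% lower over all rows tested).

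Phosphoglucomutase (pgm) and UDP-glucose pyrophosphorylase (ugp) interconvert the sugar phosphates that link sucrose and starch. Ugp1 had 6.40, 6.85 and 6.79 log2 CPM in dried trees, against 5.81, 5.78 and 5.77 log2 CPM in watered trees. On this TMM scale all dried trees were higher, and the watered trees were nearly equal (0.91 ± 0.51 SE, edgeR adjusted p = 0.285). The counts of ugp1 were 140, 648 and 835 in dried trees, against 1506, 276 and 232 in watered trees. Separation and equality thus rest on the scaling. Pgm2, the most counted phosphoglucomutase row, had 6.90, 5.75 and 7.30 log2 CPM in dried trees and 6.51, 6.57 and 6.56 log2 CPM in watered trees. Its watered trees were almost equal on the same scale and lay inside the dried range (0.24 ± 0.41 SE). Pgm4, picked after its values were seen, had 11 pooled counts in dried trees and 282 in watered trees and did not overlap (-2.87 ± 0.98 SE).

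Since each tree was sampled on every day, the arm difference of 6 June could be set against that of the other days. Less the difference of 7 May, 310 rows were called (1.07% of 29107; 255 positive, 0.876%, and 55 negative, 0.189%), among them starchsyn1 (-6.41, edgeR adjusted p = 0.0464) and hexokinase9 (-9.17, edgeR adjusted p = 0.0483). With the tree as a replicate block no row was called, with 5327 (18.3%) at an unadjusted p under 0.05, and starchsyn1 was at -6.33 with an edgeR adjusted p of 0.176. Without the watered tree 9 library of 7 May no row was called either. Unadjusted p-values were under 0.05 in 28 of 87 named rows (11 positive and 17 negative; 32.2%). Over all rows the share was 21.1%, 9.02% positive and 12.1% negative. With the tree as a block it was 26 named rows (8 positive and 18 negative), and over all rows 7.31% were positive and 11% negative. For this comparison, the 7 May values of the invertase rows spread widely. Invertase2 stood at 2.26 ± 4.18 log2 CPM in dried trees and 3.83 ± 5.48 log2 CPM in watered trees on that day (SD, n = 3 each). It was at -0.57, 0.29 and 7.07 log2 CPM in dried trees 4, 8 and 12. In watered trees 3, 9 and 11 it was at -0.77, 9.90 and 2.37 log2 CPM. Watered tree 9 thus lay above every dried tree of 6 June (highest 8.92 log2 CPM). Its 7 May library was also the highest of that day for invertase1 (9.31), invertase8 (8.54) and invertase11 (5.63 log2 CPM).

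Against 23 May, edgeR called no row, and 2755 (9.47%) had an unadjusted p under 0.05. DESeq2 called 84. Named rows at that unadjusted threshold numbered 10 of 87 (11.5%), near the share of all rows. Starchsyn1, starchsyn8 and agp5 already had lower mean levels in dried trees on 23 May. Starchsyn8 was at 2.03 ± 0.78 log2 CPM in dried trees and 4.76 ± 1.52 log2 CPM in watered trees on 23 May, and at 1.95 ± 0.71 and 5.18 ± 0.57 log2 CPM on 6 June. The arm difference of 6 June less that of 23 May was -0.27 ± 1.04 (SE) for starchsyn8. Sucsynthase10 did not show a gap on 23 May, at 4.26 ± 0.99 log2 CPM in dried trees and 4.39 ± 0.87 log2 CPM in watered trees. Hexokinase9 was likewise counted in dried trees on 23 May, at 1.35 ± 0.99 log2 CPM, against 0.63 ± 2.75 log2 CPM in watered trees (SD, n = 3 each).

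Against 29 July, edgeR called no row, and 3543 (12.2%; 3.76% positive and 8.42% negative) had an unadjusted p under 0.05. DESeq2 called 268. Named rows at that threshold numbered 17 of 87 (19.5%), 3 positive and 14 negative. On 29 July the arms were close in 3 rows chosen with their gap on 6 June known. Such a choice by itself favours a smaller gap on other days. Starchsyn1 stood at 3.52 ± 0.28 log2 CPM in dried trees and 3.45 ± 0.41 log2 CPM in watered trees. Invertase2 was low in both arms, at -0.69 ± 0.38 log2 CPM in dried trees and -0.61 ± 0.44 log2 CPM in watered trees. Mex1 stood at 2.72 ± 0.12 log2 CPM in dried trees and 2.56 ± 0.34 log2 CPM in watered trees (SD, n = 3 each for all 3 rows).

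**Figure D5:**
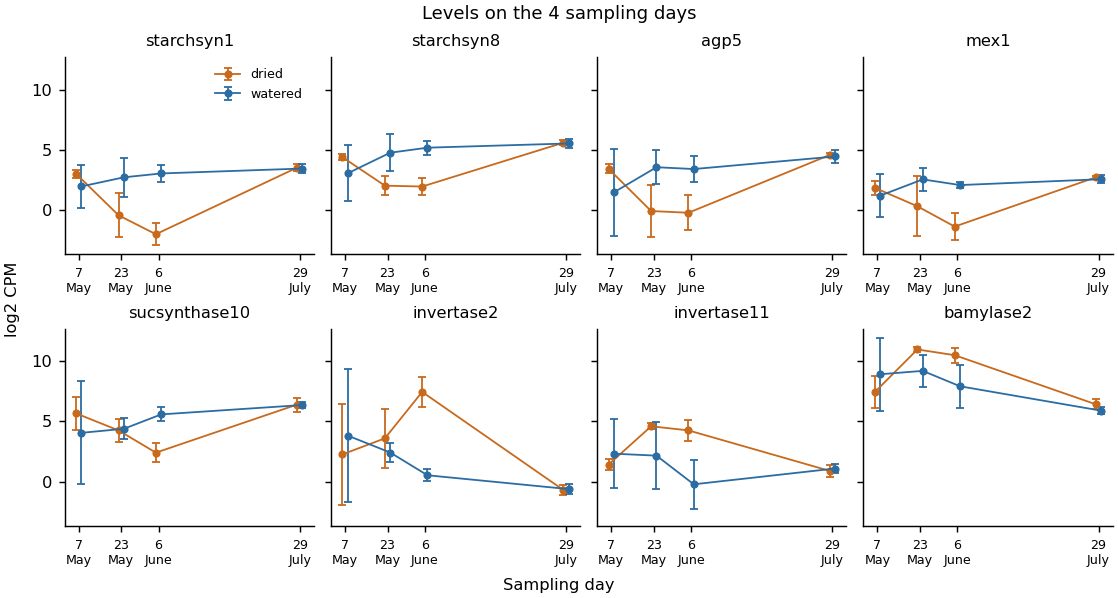
Mean log2 CPM (vertical axis) with SD over 3 trees for 8 named rows on the 4 sampling days (horizontal axis, to scale in days, arms drawn slightly apart), dried trees in orange and watered trees in blue. The 8 rows were chosen with earlier results known, from the 36 of 87 named rows tested whose arms do not overlap on 6 June. On 29 July the means of the arms lie close together in each. The wide bars of watered trees on 7 May include the library of tree 9.

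The authors' deposited table holds a second control and drought comparison, whose days the labels do not give, with fold changes that are positive where control is higher. Its fold changes lay closer to the tree-blocked difference of 6 June less 7 May than to the difference on 6 June itself, so they may be changes of the arm difference and are not read here as levels on 6 June. Of the 25073 genes with an adjusted p in the authors' deposited table, 2554 (10.2%) were under 0.05. Of these, 1354 were negative (drought higher) and 1200 positive. Of 83 named rows with an adjusted p in the authors' deposited table, 6 were negative and 14 positive at that threshold. The 6 negative ones were invertase1, invertase2, invertase8, invertase11, sucsynthase1 and bamylase2. The authors' deposited table gives starchsyn1 a log2 fold change of 6.33 (adjusted p = 0.00218), on the control side, and invertase2 a log2 fold change of -9.30 (adjusted p = 0.00195), on the drought side. The table was made from the same libraries, so it is not a separate measurement.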

How the data were processed

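Counts were estimated by the authors with RSEM, per the submitters' processing notes, which also name cutadapt, Bowtie2, DESeq2 and limma. Tool versions and the build used are not given in the sources used here. Deposited expected counts are not whole (31.2% of values) and were rounded. A second deposited table holds a signal that equals these counts times 1 constant per library. The authors' deposited comparisons give log2 fold changes and p-values.

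The test was the quasi-likelihood test of edgeR 4.0.16 (R 4.3.3) on all 24 libraries in 8 groups of 3 trees, filterByExpr, TMM scaling, 16 residual degrees of freedom and an adjusted p under 0.05 over all rows. The SE of a log2 fold change is its size divided by the root of the F statistic. The members and lists were chosen with earlier results of these data known. By rule, named rows are those called, those without overlap at a log2 fold change of at least 1 with mean level 1 log2 CPM or more, and the most counted row of each family. At most 2 IDs per direction are named, those with the largest fold change among called rows that also meet the size, level and overlap limits. Alternatives used DESeq2 1.42.0 and limma 3.58.1 and are listed in the closing section. Libraries of 1 tree are paired across days by the labels. The mean correlation of their deviations was -0.03 to 0.18 per tree. No ID matched the gene table given, so sequences and positions were not used here.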

Additional observations from a re-analysis of the deposited data

Results flagged for a closer look

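The arm difference (dried minus watered) changed between 7 May and 6 June in 310 rows by edgeR at an adjusted p under 0.05. The named rows among them are starchsyn1 (edgeR adjusted p = 0.0464) and hexokinase9 (edgeR adjusted p = 0.0483). Both were negative, that is, lower in dried trees relative to watered trees on 6 June than on 7 May. With the tree as a replicate block no row was called, and the edgeR adjusted p was 0.176 for both rows. Starchsyn1 averaged -2.004 ± 0.93 log2 CPM in dried trees and 3.04 ± 0.73 log2 CPM in watered trees on 6 June, and 3.02 ± 0.34 and 1.96 ± 1.78 log2 CPM on 7 May (SD, n = 3 each). Hexokinase9 had 0 counts in all dried trees on 6 June, while on 7 May it averaged 2.01 ± 0.24 log2 CPM in dried trees and 0.74 ± 2.86 log2 CPM in watered trees (SD, n = 3 each). The watered library of tree 9 on 7 May moves with these results, since no row was called without it, and its part in them was not tested further.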

How the results depend on the processing

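On 6 June 30 rows were called. DESeq2 size factors in edgeR gave 49, testing every row with a count 546, limma on the scaled table of the authors with a pseudocount of 1 gave 1032, and limma voom with sample quality weights 1594 (1067 higher, 527 lower in dried trees). DESeq2 gave 4058, the 6 June libraries alone 1102 and the fit without the watered tree 9 library of 7 May 3405. Leaving out 1 library of 6 June gave 0 to 12, and the 19 abundant rows left out gave 30. No fixed block was possible because no tree is in both arms. With the tree as a random replicate block limma voom gave 14 (consensus correlation 0.05). Less 7 May the count was 310, against 2848 by DESeq2, 573 with its size factors, 751 without the filter, 675 with voom weights, 0 on the authors' scaled values, 0 without the watered tree 9 library of 7 May, 0 with the replicate block and 0 to 369 with 1 library of 6 June left out. Less 23 May it was 0, against 84 by DESeq2, 1 without the watered tree 9 library and 1 with voom weights (2202 unadjusted with the replicate block, 0 called). Less 29 July it was 0, against 268 by DESeq2 and 603 with voom weights (2968 unadjusted with the replicate block, 0 called). The causes of these moves were not tested.

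Over 750 values of single named rows and IDs under an alternative, 642 kept direction and side of the threshold, 77 passed it, 29 no longer did and 2 turned direction. The last were mex2 (0.14 without dried tree 8, lowest -0.85 without dried tree 12) and pgm2 (-0.13 without dried tree 12, highest 0.56 without dried tree 8). Depth limits low rows most in dried tree 4, where the counts outside the abundant rows are fewest, and intervals cover counting error only. Trees are separate plants, but with 3 per arm each library carries much of a result.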
